A study of Mus musculus with 15 samples.

Results

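Untreated liver of the KKAy mouse, a polygenic model of obese type 2 diabetes, was compared with C57BL/6J liver across all measured genes, with weight on the biology outside lipid and sterol metabolism. The arrays were taken by their labels, 5 of the KKAy model and 5 of C57BL/6J, and these 10 arrays were compared out of 15 in the series. The remaining 5 arrays, from KKAy mice given XKA, a herbal preparation, entered only the estimate of the spread. All mice were male, about 10 weeks old when gavage began, and all 10 mice compared received distilled water by gavage once a day for 32 days. KKAy mice carry the yellow agouti allele on the KK background and were fed a high-fat diet, whereas the age-matched C57BL/6J mice were fed chow and came from another supplier. Strain, diet and supplier therefore differed together, and the differences below cannot be told apart by these sources. By the methods the mice were fed when killed but serum of the same day was taken fasting, and the hours without food before the livers were collected remain unknown. The methods give 5 mice a group for the arrays, with no word of pooling, and a lower signal from a whole liver cannot tell fewer cells of a type from less RNA per cell.

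The liver makes most plasma proteins, clears drugs and hormones, stores metals and balances glucose and nitrogen, and hepatocytes carry out nearly all of these tasks. Many of its genes are set by hormones: insulin acts through IRS proteins and FOXO1, growth hormone acts through STAT5B and gives male and female livers different programmes, and thyroid hormone raises a set of metabolic genes. Inflammation shifts hepatocytes towards acute phase proteins under IL-6 and IL-1, while amino acid shortage, metals, electrophiles and DNA damage each act on target genes through ATF4, MTF1, NRF2 and p53.

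Signals are given as multiples of the median probe-set signal of the same array, so that a value of 1 lies at the array median. The deposited intensities had array medians of 127 to 162 in the KKAy model and 146 to 182 in C57BL/6J. The choice of scaling moved the balance of the calls, and the median log2 difference of all genes was 0.15 after scaling to 1 median, -0.04 in the intensities as deposited and 0.04 after quantile normalization. Of 18193 genes, 1924 had a higher and 442 a lower signal in KKAy model liver at an adjusted p under 0.05 after median scaling, or 10.6% and 2.43% of the genes tested. Higher genes made up 81.3% of the calls after median scaling, 52.5% as deposited and 59.2% after quantile normalization. A gene is therefore said to have risen or fallen only where it passed in the same direction under all 3 scalings, which held for 1131 genes that rose and 439 that fell, or 6.22% and 2.41% of the genes tested. The counts of each gene list are read against these last percentages. Overlap of the groups is described for single genes, and the share of all genes without overlap was not counted. Log2 differences are KKAy model minus C57BL/6J after median scaling, written with their standard errors (as difference ± standard error, 5 arrays a group), and are given only where both group means lay above the array median. Both means lay above it for 1343 of the genes that rose or fell, of which 364 rose and 134 fell by at least 1 on the log2 scale.

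**Figure D1:**
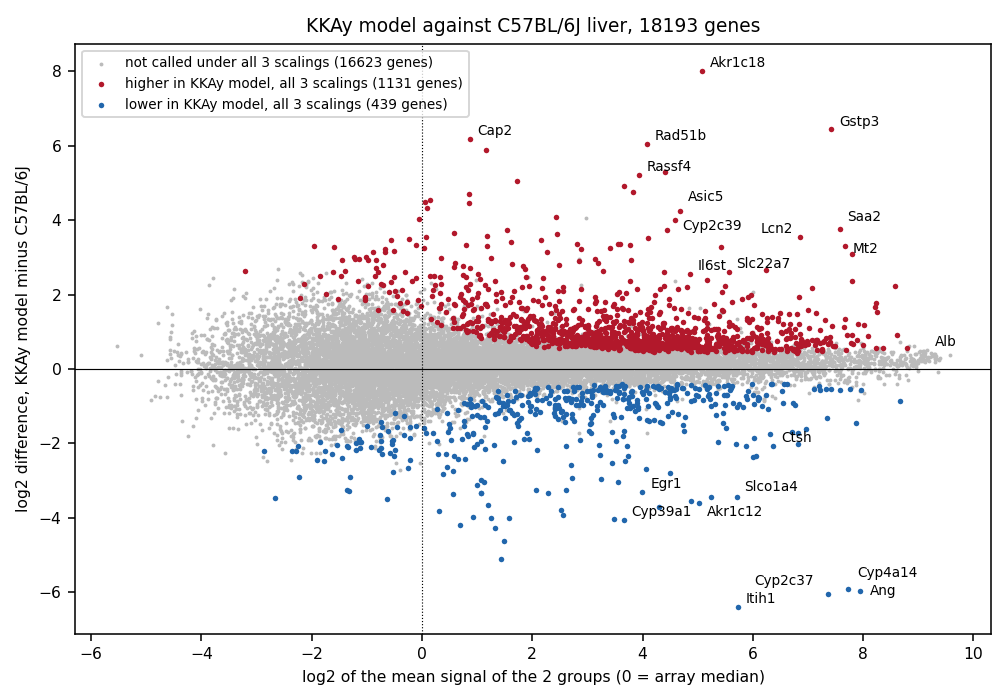
Log2 difference between the KKAy model and C57BL/6J (vertical axis, n = 5 arrays each) against the log2 of the mean signal of both groups relative to the array median (horizontal axis) for 18193 genes. Red points are the 1131 genes that rose and blue points the 439 genes that fell under all 3 scalings, and Gstp3 at 6.44 and Ang at -5.96 are among the most displaced.

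The arrays carried the marks of their labels. The agouti gene a, expressed outside the skin in carriers of the yellow allele, read 13.1, 13.7, 17.4, 14.01 and 8.74 in KKAy model replicates 1 to 5 and 1.21, 1.602, 1.48, 1.41 and 1.302 in C57BL/6J replicates 1 to 5, with no overlap. Raly and Eif2s2, which lie in the deletion that made that allele, fell, and Nnt, of which C57BL/6J carries a truncated copy, rose. Hepatocyte markers were high in both groups, with albumin (Alb) at 512 to 832 against 338 to 687 and transthyretin (Ttr) at 523 to 908 against 421 to 769, both overlapping. Control probe sets for 18S ribosomal RNA differed in part between the groups. The control probe set at the 5′ end of 18S ribosomal RNA read 30.01 to 42.9 in the KKAy model and 123 to 255 in C57BL/6J, and the one in its middle 19.2 to 33.9 against 37.6 to 57.5, whereas the one at its 3′ end overlapped at 39.8 to 68.6 against 52.1 to 81.01. The ratio of the 3′ to the 5′ probe set overlapped for both Actb (2.48 to 2.75 against 2.49 to 3.42) and Gapdh (0.710 to 0.946 against 0.829 to 1.18). The part of this 18S difference in the calls was not tested.

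Among the most displaced genes were detoxification enzymes and secreted proteins. Gstp3, a pi-class glutathione transferase, read 392, 355, 326, 351 and 275 in KKAy model replicates 1 to 5 and 5.69, 3.39, 3.34, 4.304 and 3.21 in C57BL/6J (log2 difference 6.44, standard error 0.16, adjusted p = 1.06e-15 from limma). Akr1c18, a hydroxysteroid dehydrogenase that inactivates progesterone, read 89.6, 75.9, 40.8, 79.2 and 50.1 in the KKAy model, while all C57BL/6J arrays lay below the array median. Every KKAy model array thus lay far above every C57BL/6J array for both enzymes. Lack of overlap was a condition for the genes picked by largest difference. In the other direction, Ang, the secreted ribonuclease angiogenin, read 5.77, 7.34, 13.5, 7.38 and 6.397 in the KKAy model and 619, 471, 383, 504 and 452 in C57BL/6J (log2 difference -5.96, standard error 0.20, adjusted p = 8.33e-14). Itih1, a heavy chain of the inter-alpha-trypsin inhibitors that bind hyaluronan, read 2.39, 1.4, 0.573, 1.601 and 0.961 in the KKAy model and 110.1, 101, 91.9, 104 and 117 in C57BL/6J (log2 difference -6.39, standard error 0.62, adjusted p = 6.68e-07), and its partner Itih2 was also lower (86.2 to 148 against 162 to 206, -0.58 ± 0.15). The 3 probe sets of Ang above the array median all pointed down but differed in size, with log2 differences of -5.96, -2.46 and -0.34, whereas Gstp3, Akr1c18 and Itih1 each had 1 such probe set. Across all genes with at least 2 probe sets above the array median, every one of them pointed the same way for 382 of 537 genes that rose and for 127 of 171 that fell, or 71.1% and 74.3%.

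Further genes with large, non-overlapping differences came from varied roles. Asic5, a bile acid sensitive ion channel, read 40.7 to 56.4 in the KKAy model against 1.78 to 3.202 in C57BL/6J (4.25 ± 0.21 on the log2 scale). Rad51b, which acts in recombination repair of DNA, read 27.5 to 39.5 in the KKAy model and 0.111 to 1.303 in C57BL/6J, where the mean lay below the array median. Rassf4, a Ras-association domain protein, read 17.3 to 51.3 against 0.217 to 2.25. These 3 genes rose without overlap of the groups, which was a condition for naming them. Scara5, a ferritin receptor, rose by 3.74 and varied widely among KKAy model arrays, at 41.4, 9.99, 55.2, 76.4 and 20.8. Crym, a thyroid hormone binding protein, read 5.83 to 19.1 against 0.275 to 1.46. Cap2, an actin regulator, Sema3e, a semaphorin, and the interferon-inducible genes Ifi202b and Ifi44l were all below the array median in the C57BL/6J mean and above it in that of the KKAy model. Among genes that fell, Sec14l4, a lipid-binding protein, read 1.04 to 1.49 against 18.1 to 26.6 (-4.04 ± 0.76), Cyp39a1, an oxysterol hydroxylase, 0.896 to 2.14 against 12.2 to 42.5 (-4.04 ± 0.36), and the zinc finger gene Zfp874a 0.307 to 1.16 against 10.1 to 12.2.

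**Figure D2:**
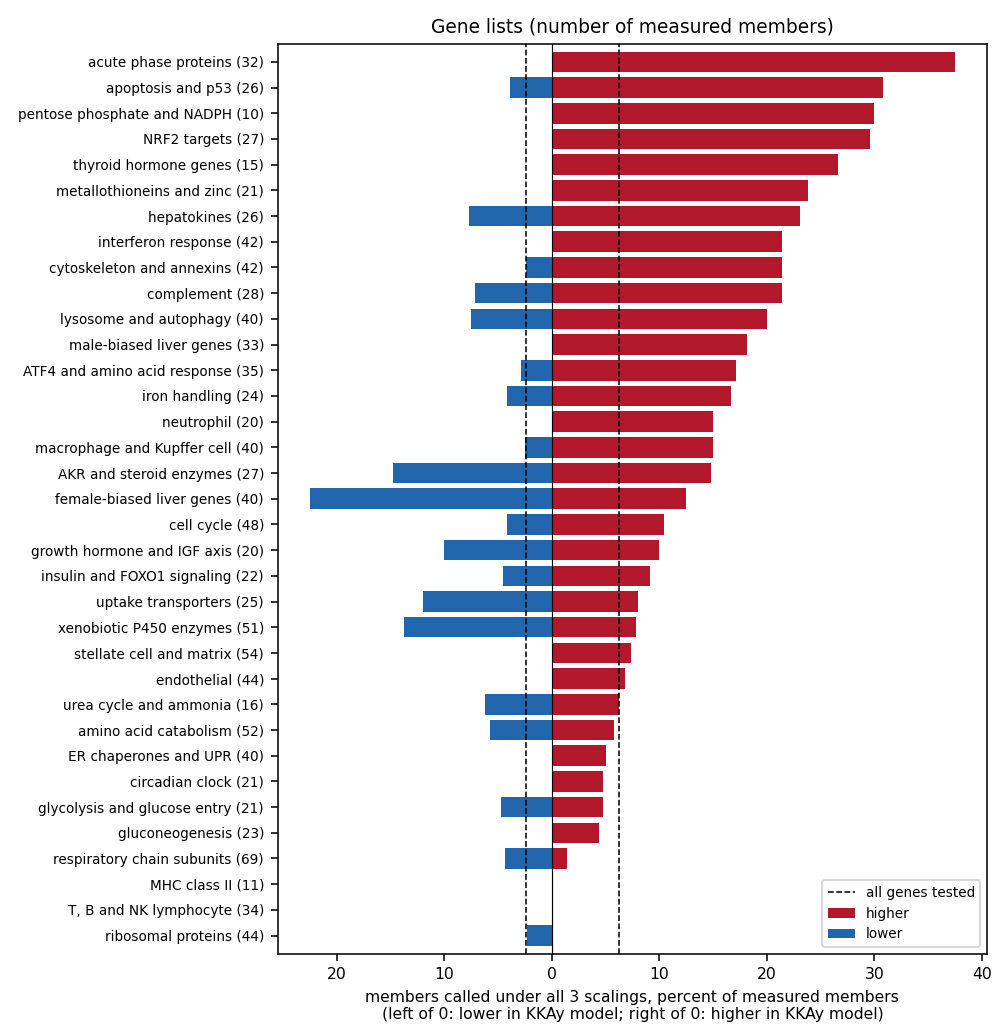
Share of the measured members of gene lists that rose (right, red) or fell (left, blue) in the KKAy model under all 3 scalings, in percent, with the number of measured members in parentheses. Dashed lines mark the share over all genes tested, 6.22% higher and 2.41% lower. The acute phase list reached 37.5% higher and the female-biased list 22.5% lower, whereas ribosomal proteins, lymphocyte markers and MHC class II genes lay at or below the share over all genes.

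Genes that are normally higher in female liver were the list with the largest share that fell among those drawn. Of 40 measured female-biased genes, 9 fell and 5 rose, with a median log2 difference of -0.42 against 0.15 over all genes. Cyp2c37, a cytochrome P450 that metabolises arachidonic acid, read 143, 4.02, 0.739, 1.94 and 2.17 in the KKAy model and 330.4, 325, 228, 307 and 306 in C57BL/6J (adjusted p = 0.00244 from limma). KKAy model replicate 1 stood far above the other KKAy model arrays for this gene, and without it the adjusted p was 0.000101. Slco1a4, an organic anion and digoxin uptake carrier, read 11.5, 8.62, 6.63, 8.73 and 8.69 in the KKAy model against 108, 112, 103, 81.1 and 73.7 in C57BL/6J (log2 difference -3.44, standard error 0.35, adjusted p = 1.28e-06). Cyp4a14, a fatty acid hydroxylase, read 3.84 to 16.7 in the KKAy model against 333 to 526, and Nipal1, a magnesium transporter, Abcd2, a peroxisomal transporter, and Cyp17a1, the enzyme of androgen synthesis, all had a KKAy model mean below the array median, as did Atp6v0d2, a proton pump subunit. Fmo2, a flavin monooxygenase, and the transcription factor Tox were the other members that fell, though the call of Fmo2 was lost when 1 array was left out (adjusted p = 0.0845 without C57BL/6J replicate 1, the highest of 5 such omissions). Cyp2c39, a retinoic acid hydroxylase, rose by 4.01 ± 0.27 on the log2 scale (23.4 to 78.5 against 2.12 to 3.497), Ntrk2, a neurotrophin receptor, by 2.36 ± 0.21, the fatty acid carrier Cd36 by 2.24 ± 0.19, the efflux pump Abcc4 by 1.57 ± 0.38 and the growth arrest gene Gadd45a by 1.31 ± 0.29. Cux2, a regulator that marks female liver, overlapped at 2.24 to 6.44 against 2.61 to 4.303.

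Of 33 male-biased genes, 6 rose and none fell, with a median log2 difference of 0.48, and 4 more were higher after median scaling alone. Serpina12 (vaspin), a serpin, read 46.8, 75.98, 57.02, 96.9 and 66.4 in the KKAy model and 9.46, 8.93, 16.4, 24.9 and 29.7 in C57BL/6J (log2 difference 2.06, standard error 0.31, adjusted p = 0.000127). Cyp4a12a, the main male arachidonic acid hydroxylase, read 174 to 280.1 against 62.5 to 116 (1.32 ± 0.19), and Alas2, an isoform of the first enzyme of haem synthesis, 23.4 to 40.4 against 6.305 to 14.03 (1.88 ± 0.19). The complement proteins C6 (1.26 ± 0.18) and C9 (0.92 ± 0.16) also rose, all without overlap, and the sixth member was Mcm10, a replication factor, at 35.8 to 57.5 against 16.8 to 32.7. Several of the best known male markers did not pass. Mup3, a major urinary protein that shares sequence with its many paralogs, read 325 to 401 against 299 to 349, Hsd3b5 read 77.1, 70.9, 15.4, 58.4 and 51.99 against 34.97, 51.5, 24.8, 92.5 and 124, and Bcl6, a repressor in male liver, read 5.804 to 10.5 against 4.06 to 36.03, with overlapping groups for all 3 (adjusted p = 0.586, 0.863 and 0.478). Elovl3 and Slco1a1 were higher after median scaling but lost the call in the deposited intensities and after quantile normalization.

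**Figure D3:**
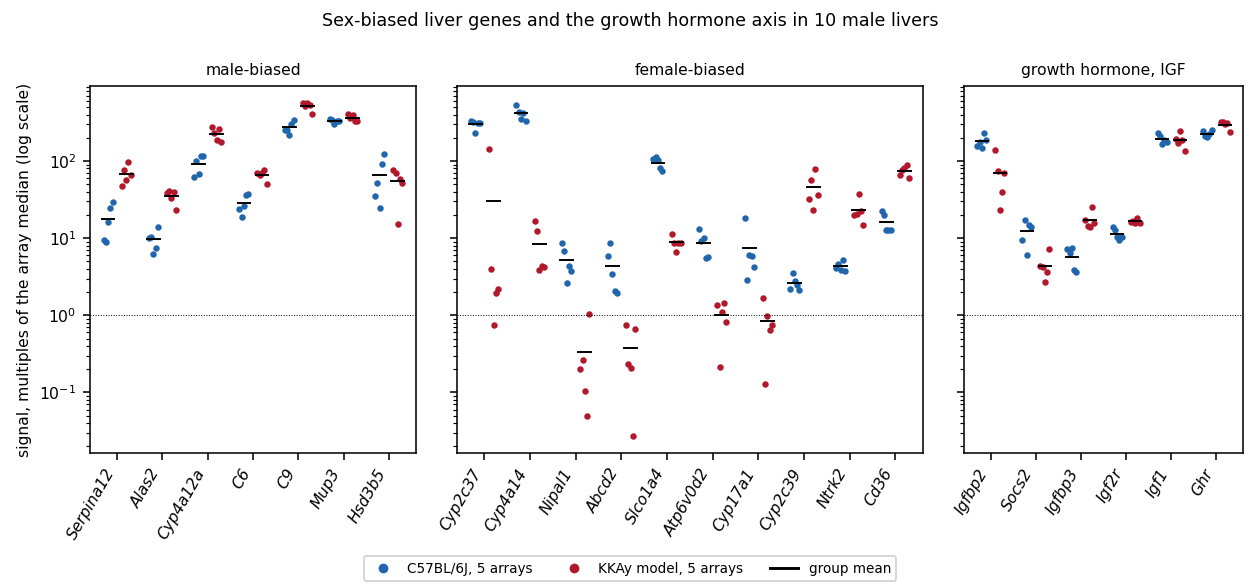
Signal on each of the 10 arrays, in multiples of the array median on a log axis, for male-biased, female-biased and growth hormone axis genes (blue, C57BL/6J; red, KKAy model; black bar, group mean; dotted line, array median). The female-biased genes Cyp2c37 to Cyp17a1 lie lower and Cyp2c39, Ntrk2 and Cd36 higher in the KKAy model, and KKAy model replicate 1 is the high red point of Cyp2c37 at 143.

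In the growth hormone axis, binding proteins and the feedback inhibitor were called, and the hormone Igf1 and the receptor, each on its brightest probe set, were not. Igfbp2, an insulin-like growth factor binding protein that falls with insulin and obesity, read 138, 74.5, 22.996, 39.4 and 70.96 in the KKAy model and 155, 178, 148, 233 and 188 in C57BL/6J (log2 difference -1.62, standard error 0.44, adjusted p = 0.0178), and without KKAy model replicate 3, its lowest array, the adjusted p was 0.0567. Socs2, the STAT5 target that dampens growth hormone signalling, read 4.37, 4.26, 2.71, 3.599 and 7.15 against 9.46, 17.3, 6.101, 14.9 and 13.9 (-1.46 ± 0.37), with overlap in 1 array on each side. Igfbp3 rose without overlap (14.1 to 25.5 against 3.69 to 7.53, 1.62 ± 0.28), as did Igf2r, the receptor that clears IGF2 (0.56 ± 0.13). Igf1 read 134 to 244 against 165 to 234 (adjusted p = 0.831), and the receptor gene Ghr 235 to 319 against 205 to 251 (adjusted p = 0.126), so neither passed. The mean of the 3 probe sets of Ghr was higher in the KKAy model (log2 difference 0.51, adjusted p = 0.0131). In all, 2 of 20 measured members rose, Igfbp3 and Igf2r, and 2 fell, Igfbp2 and Socs2.

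Of 22 insulin and FOXO1 genes, 2 rose and 1 fell (9.09% and 4.55%, against 6.22% and 2.41% over all genes). Of 23 gluconeogenic genes, 1 rose and none fell (4.35% and 0%), and of 21 glycolytic genes, 1 rose and 1 fell (4.76% each way). Irs2, the insulin receptor substrate that insulin represses through FOXO1, read 1.46, 0.7796, 2.02, 0.762 and 1.28 in the KKAy model and 2.97, 2.99, 2.48, 3.43 and 2.51 in C57BL/6J (log2 difference -1.28, standard error 0.29, adjusted p = 0.00506), with no overlap. Foxo1 itself (14.6 to 26.95 against 10.8 to 17.9, 0.71 ± 0.17) and Pik3r1, the regulatory subunit of phosphoinositide kinase (0.57 ± 0.14), rose with overlapping groups. Irs1 did not pass (adjusted p = 0.899). The insulin receptor gene Insr did not pass after median scaling (adjusted p = 0.77). Its brightest probe set was lower in the deposited intensities and after quantile normalization (adjusted p = 0.0326 and 0.0117). However, its other probe set above the array median pointed up. The mean of all its probe sets did not pass (log2 difference 0.48, adjusted p = 0.15). Pck1, the first committed enzyme of gluconeogenesis, read 441, 399.7, 437, 332 and 319 against 365, 329, 254, 368 and 328, and G6pc, which releases free glucose, 70.1, 61.95, 134, 63.5 and 55.5 against 51.8, 34.5, 39.3, 85.5 and 29.1. Neither passed (adjusted p = 0.391 and 0.179), and the groups overlapped for both. The mean of the 3 probe sets of Pck1 was lower in the KKAy model (log2 difference -0.54, adjusted p = 0.0465). Pklr, liver pyruvate kinase, rose by 0.95 ± 0.24, and Aldoc, an aldolase isoform, fell (2.88 to 5.03 against 9.81 to 15.9, -1.65 ± 0.22). Slc2a2, the hepatic glucose transporter, overlapped at 140.1 to 269.8 against 139.9 to 238. Gbe1, which branches glycogen, rose by 0.81 ± 0.21.

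The list of pentose phosphate and NADPH genes, which also holds Tkfc, had 3 of 10 measured members that rose. Me1, cytosolic malic enzyme, read 88.1, 95.7, 63.2, 101 and 74.1 against 41.7, 50.3, 27.4, 25.3 and 29.3 (log2 difference 1.31, standard error 0.21, adjusted p = 0.000248). Taldo1, transaldolase, rose by 0.83 ± 0.15 and Tkfc, which phosphorylates dihydroxyacetone and glyceraldehyde, by 1.15 ± 0.22. The following 3 genes were also measured by PCR in the study. Gpd2, the mitochondrial glycerol-3-phosphate dehydrogenase, read 21.9, 25.3, 28.4, 26.4 and 22.1 against 10.8, 10.2, 11.6, 11.4 and 11.2 (log2 difference 1.16, standard error 0.12, adjusted p = 1.28e-06), and Gnai1, an inhibitory G protein subunit, read 17.1, 18.1, 17.9, 27.6 and 16.1 against 5.03, 4.596, 4.099, 3.56 and 5.32 (log2 difference 2.08, standard error 0.20, adjusted p = 8.34e-07). Fgf1, a growth factor with glucose-lowering action, did not pass after median scaling on its brightest probe set (15.2 to 22.4 against 20.2 to 27.4, adjusted p = 0.234). It was lower under both other scalings (adjusted p = 0.0194 and 0.00474). All 3 of its probe sets pointed down, and their mean after median scaling was lower (log2 difference -0.99, adjusted p = 0.00111). The study reports that PCR of these genes gave patterns similar to its arrays.

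Among genes of secreted liver hormones, 6 of 26 rose and 2 fell. Fgf21, the fasting and stress hormone, read 2.65, 3.52, 9.53, 2.88 and 4.76 in the KKAy model and 0.467, 1.36, 2.59, 1.02 and 1.41 in C57BL/6J (log2 difference 1.80, standard error 0.38, adjusted p = 0.00346). Inhbe, an activin subunit, read 14.03 to 27.9 against 4.54 to 11.4 (1.24 ± 0.25), and Angptl8, an insulin-induced inhibitor of lipoprotein lipase, 15.3 to 21.1 against 5.69 to 12.3 (1.01 ± 0.20). Enho, which encodes adropin, read 1.44 to 2.15 against 3.94 to 5.97 (-1.53 ± 0.42), with an adjusted p of 0.0511 without C57BL/6J replicate 3. Each of these 4 genes is described singly, and its groups did not overlap.

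The list of thyroid hormone genes, which holds receptors, carriers and binding proteins beside target genes, had 4 of 15 measured members that rose and none that fell, with a median log2 difference of 0.51. Dio1, the deiodinase that activates thyroxine, read 215, 181, 183, 228 and 149.6 in the KKAy model against 46.8, 64.9, 51.8, 67 and 91.2 in C57BL/6J (log2 difference 1.60, standard error 0.16, adjusted p = 1.55e-06). Thrsp, a lipogenic protein that thyroid hormone induces, read 354, 212, 75.3, 176 and 105 against 57.5, 39.97, 26.6, 41.2 and 52.01 (1.93 ± 0.32), and Me1 and Gpd2, given above, are the other members that rose. Serpina7, thyroxine-binding globulin, was higher after median scaling (27.8 to 85.4 against 8.103 to 17.9) but not under the other scalings. Among nuclear receptors and liver factors, Srebf1, the sterol and lipogenic regulator, rose by 1.99 ± 0.24 and Pparg by 1.81 ± 0.21, whereas Hnf4a and Ppara did not pass (adjusted p = 0.407 and 0.305).

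Enzymes of nitrogen and amino acid disposal changed in both directions. Of 16 genes of the urea cycle and ammonia handling, 1 rose and 1 fell (6.25% each way). Of 52 genes of amino acid catabolism, 3 rose and 3 fell (5.77% each way). The shares over all genes were 6.22% higher and 2.41% lower. The number of higher members after median scaling, 10, was 3 without KKAy model replicate 4 and 17 without replicate 5. Cps1, Otc and Arg1, enzymes of the urea cycle, overlapped between the groups, with Cps1 at 425 to 617 against 420.5 to 647. Asl, argininosuccinate lyase, was the exception, at 106, 75.1, 60.9, 67.3 and 59.4 in the KKAy model and 191, 136, 143, 139 and 107 in C57BL/6J (log2 difference -0.97, standard error 0.24, adjusted p = 0.0101). Got1, cytosolic aspartate aminotransferase, read 17.2 to 28.9 against 50.6 to 84.7 (-1.57 ± 0.36). Hal and Amdhd1, enzymes of histidine breakdown, also fell, with log2 differences of -0.59 ± 0.19 and -0.95 ± 0.24, and Hal lost its call when 1 array was left out (adjusted p = 0.121 without C57BL/6J replicate 1, the highest of 9 such omissions). Bckdhb, a subunit of branched-chain ketoacid dehydrogenase, read 93.4 to 157 against 48.2 to 78.2 (1.20 ± 0.16), Aldh4a1, of proline breakdown, 13.4 to 28.5 against 4.797 to 9.39 (1.31 ± 0.23), and Acadsb, of isoleucine breakdown, rose by 0.54 ± 0.13. Rhbg, an ammonium transporter of pericentral hepatocytes, rose with overlap (5.25 to 17.99 against 3.35 to 6.61) and likewise lost its call (adjusted p = 0.0746 without KKAy model replicate 4, the highest of 3 such omissions).

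A part of the ATF4 and amino acid response list rose, 6 of 35 members against 1 that fell. Asns, asparagine synthetase, read 14.1, 18.2, 32.9, 27.1 and 13.6 in the KKAy model and 3.11, 4.86, 5.67, 6.299 and 4.68 in C57BL/6J (log2 difference 2.05, standard error 0.44, adjusted p = 0.00343), and it was highest in KKAy model replicates 3 and 4. Atf5, a transcription factor, read 96.3 to 193 against 55.3 to 79.4 (1.09 ± 0.21). Sesn2, a leucine sensor that restrains mTORC1, rose by 0.97 ± 0.23, Gars, the glycyl-tRNA synthetase, by 0.71 ± 0.11, and Psph, of serine synthesis, by 0.78 ± 0.19. The stress markers Trib3 (6.39 to 13.7 against 8.24 to 12.5, adjusted p = 0.907) and Ddit3 (5.24 to 6.56 against 4.13 to 5.18, adjusted p = 0.0601, chosen after its values were seen) did not pass, and Bbc3, a pro-apoptotic member, fell (log2 difference -0.64 ± 0.20), a call that leaving out 1 array removed (adjusted p = 0.104 without KKAy model replicate 2, the highest of 7 such omissions). Of 40 chaperone and unfolded protein response genes of the endoplasmic reticulum, 2 rose and none fell, with Hspa5, its main chaperone, at 239 to 398 against 163 to 347 (adjusted p = 0.431). Folate and one-carbon genes rose in 3 of 26 members, namely Psph, Mthfd1l, a mitochondrial formate-producing enzyme (6.15 to 14.6 against 1.54 to 3.22, 2.20 ± 0.23), and Mtrr, which keeps methionine synthase active (1.13 ± 0.19).

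The promoters of Asns and Fgf21 are shown because both rose without overlap and ATF4 is known to bind an element of the form TGATGNAA in such genes. The 250 bases before each gene start come from RefSeq on build GRCm38.p6, read 5′ to 3′ on the strand of the gene, and capitals mark matches to TGATGNAA on either strand. Asns lies on the minus strand at chr6:7693210-7693459, and its match begins 23 bases before the start.
Asns: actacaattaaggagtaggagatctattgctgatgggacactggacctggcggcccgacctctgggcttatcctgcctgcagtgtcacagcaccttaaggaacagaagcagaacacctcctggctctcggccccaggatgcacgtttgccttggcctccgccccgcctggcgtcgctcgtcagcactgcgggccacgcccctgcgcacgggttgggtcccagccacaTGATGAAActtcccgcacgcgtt
Fgf21 lies on the minus strand at chr7:45615491-45615740, and its match, on the opposite strand, begins 139 bases before the start.
Fgf21: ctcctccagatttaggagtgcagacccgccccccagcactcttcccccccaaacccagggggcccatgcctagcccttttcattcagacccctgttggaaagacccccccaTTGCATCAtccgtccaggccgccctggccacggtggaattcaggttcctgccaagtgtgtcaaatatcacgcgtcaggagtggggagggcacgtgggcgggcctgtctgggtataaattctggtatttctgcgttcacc
Such a match was present in 3 of the 6 list members that rose (Asns, Fgf21 and Gars), in 6 of 23 other members with a promoter sequence, and in 3.45% of all 32851 promoter windows of this length. A match describes the letters only.

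Metal-handling genes rose in 5 of 21 measured members and fell in none. Mt2, metallothionein 2, which binds zinc and copper, read 321, 282, 654, 348 and 219.9 in KKAy model replicates 1 to 5 and 58.8, 19.6, 64.2, 48.3 and 12.9 in C57BL/6J replicates 1 to 5 (log2 difference 3.32, standard error 0.39, adjusted p = 9.6e-06). Mt1 read 399, 343, 842, 373 and 263 against 282, 176, 137, 103 and 49.5 (log2 difference 1.67, standard error 0.37, adjusted p = 0.00478), with C57BL/6J replicate 1 above the lowest KKAy model array. Both were highest in KKAy model replicate 3, and both are acute phase and glucocorticoid targets as well as zinc targets. The zinc exporter of the plasma membrane, Slc30a1, read 27.96, 29.9, 49.7, 27.01 and 24.2 against 16.3, 13.1, 14.7, 11.5 and 16.4 (log2 difference 1.10, standard error 0.19, adjusted p = 0.000545). Slc30a10, a manganese exporter, rose by 1.23 ± 0.30, and Slc39a7, which releases zinc from the endoplasmic reticulum, by 0.72 ± 0.17. Without KKAy model replicate 3, 6 genes of the list were higher after median scaling, against 7 with it.

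Promoters of the metallothioneins and of Slc30a1 are printed because these genes are the known targets of the zinc-sensing factor MTF1, whose metal response element has the core TGCACNC or TGCGCNC. The same RefSeq source, window and strand convention apply, and capitals mark matches to either core on either strand. Mt2 lies on the plus strand at chr8:94172368-94172617 and holds 3 matches, which begin 223, 128 and 50 bases before the start.
Mt2: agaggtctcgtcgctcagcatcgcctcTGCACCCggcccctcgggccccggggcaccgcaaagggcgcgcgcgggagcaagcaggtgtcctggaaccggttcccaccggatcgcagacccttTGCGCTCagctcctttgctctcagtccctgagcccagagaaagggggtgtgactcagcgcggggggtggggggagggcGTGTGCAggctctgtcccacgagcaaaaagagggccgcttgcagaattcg
Mt1 lies on the plus strand at chr8:94178839-94179088, and its match begins 23 bases before the start.
Mt1: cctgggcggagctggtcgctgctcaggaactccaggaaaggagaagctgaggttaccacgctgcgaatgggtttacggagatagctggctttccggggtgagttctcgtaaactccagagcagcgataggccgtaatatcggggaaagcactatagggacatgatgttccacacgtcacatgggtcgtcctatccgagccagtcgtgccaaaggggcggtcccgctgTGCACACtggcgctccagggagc
Slc30a1 lies on the plus strand at chr1:191906531-191906780, and its match begins 43 bases before the start.
Slc30a1: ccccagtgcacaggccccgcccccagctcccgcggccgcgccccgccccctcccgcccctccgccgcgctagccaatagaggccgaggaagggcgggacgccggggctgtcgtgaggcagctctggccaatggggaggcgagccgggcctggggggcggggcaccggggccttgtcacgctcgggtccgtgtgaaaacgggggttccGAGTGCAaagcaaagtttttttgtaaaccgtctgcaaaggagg
At least 1 match was present in 4 of the 5 list members that rose, in 6 of 13 other members with a promoter sequence and in 21.4% of all promoter windows. At least 3 matches, as in Mt2, were present in 1.26% of them. Bases outside these windows were not searched, so the numbers of matches describe the windows and not the whole promoters.

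Iron genes rose in 4 of 24 measured members and fell in 1. Slc40a1 (ferroportin), the iron exporter, read 139, 244, 239, 217 and 168 against 119, 101, 69.5, 93.1 and 106 (log2 difference 1.04, standard error 0.18, adjusted p = 0.000494). Hamp2 read 17.7, 20.04, 7.71, 32.8 and 24.6 in the KKAy model and 233, 46.9, 89.6, 40.8 and 73.2 in C57BL/6J (log2 difference -2.07, standard error 0.41, adjusted p = 0.00177), whereas Hamp, which encodes hepcidin, the hormone that closes ferroportin, read 105, 187, 126, 366 and 262 against 361, 206, 272, 173 and 289.9 and did not pass (adjusted p = 0.524). The sequences of Hamp and Hamp2 are close paralogs, and how far their probe sets share signal was not tested. Slc48a1, a haem transporter, rose by 1.08 ± 0.16, although 1 of its 2 probe sets pointed down. Hfe, which senses iron, rose by 0.85 ± 0.15 on its brightest probe set but had a log2 difference of -1.29 when its probe sets were averaged. Alas2, given above with the male-biased genes, was the 1 of 9 measured erythroid markers that rose, with Hbb-b2, an adult beta-globin gene, at 4.03 to 5.51 against 3.08 to 4.65.

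**Figure D4:**
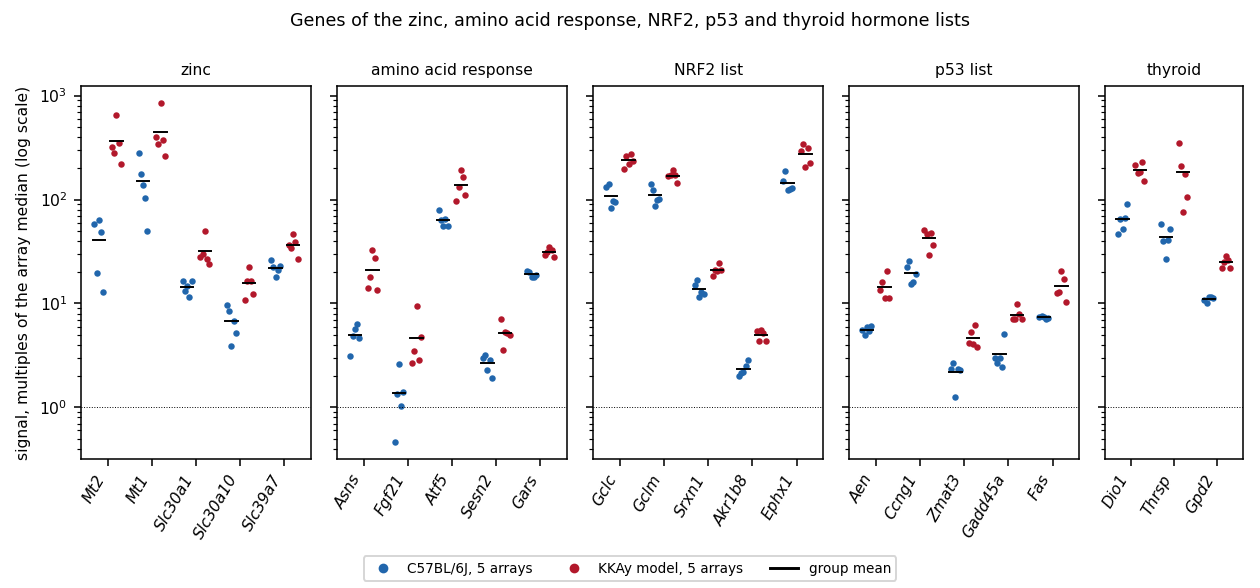
Signal on each of the 10 arrays, in multiples of the array median on a log axis, for named members of the zinc, amino acid response, NRF2, p53 and thyroid hormone lists (blue, C57BL/6J; red, KKAy model; black bar, group mean; dotted line, array median). The group means of all genes drawn are higher in the KKAy model, and Mt1 is the one in which a C57BL/6J array reaches into the KKAy model range.

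Genes of the NRF2 list, which answer to electrophiles and oxidants, rose in 8 of 27 measured members and fell in none, with a median log2 difference of 0.50. Gclc, the catalytic subunit of the first enzyme of glutathione synthesis, read 195, 263, 221, 274 and 236 against 132, 140.2, 82.02, 97.03 and 94.3 (log2 difference 1.14, standard error 0.18, adjusted p = 0.000295), and its modifier subunit Gclm read 144 to 192 against 86.7 to 140.2 (0.64 ± 0.15). Srxn1, which repairs peroxiredoxins, rose by 0.62 ± 0.14, Akr1b8, an aldo-keto reductase, by 1.10 ± 0.16, and Ephx1, microsomal epoxide hydrolase, by 0.92 ± 0.24, all without overlap. Me1, Taldo1 and Abcc4, given above, complete the 8. Other well known members did not pass. Nqo1 read 2.997 to 6.73 against 3.48 to 6.71 (adjusted p = 0.959), and Hmox1, haem oxygenase, read 2.23, 1.91, 7.21, 2.42 and 2.03 against 1.17, 1.58, 1.57, 1.43 and 1.305 (adjusted p = 0.124), both named after their values were seen.

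Drug metabolism moved in both directions. Of 51 xenobiotic enzymes, 7 fell and 4 rose, and the members that fell were mostly of the Cyp2c family. Of 11 measured Cyp2c genes, counted after the values were seen, 4 fell and 1 rose. Cyp2c68 read 27.6 to 64.9 against 129 to 229 (-2.02 ± 0.28) and Cyp2c54 246, 148, 47.2, 142 and 104 against 427, 352, 269, 297 and 318 (-1.45 ± 0.38). Cyp2c50 fell with overlap (-0.86 ± 0.28). Its call was lost when any 1 array other than KKAy model replicate 1 was left out, with the highest adjusted p, 0.135, without KKAy model replicate 3. These genes share sequence, so that their probe sets may share signal. Ces2a, a carboxylesterase, read 125, 52.1, 26.96, 41.9 and 42.8 against 195, 189, 125, 153 and 172 (log2 difference -1.72, standard error 0.30, adjusted p = 0.000603), and Ahr, the dioxin receptor, fell with overlap (log2 difference -0.84 ± 0.17). Fmo5, a flavin monooxygenase, rose instead (229.7 to 323 against 82.7 to 143, 1.34 ± 0.16). Cyp3a11, the abundant drug-metabolising P450, and the receptors Nr1i2 (PXR) and Nr1i3 (CAR) did not pass (adjusted p = 0.436, 0.759 and 0.919), nor did Cyp2b10, the usual readout of CAR (45.6 to 143 against 36.2 to 162). Sulfotransferases and glucuronosyltransferases had no member of 22 that rose or fell, while 2 were higher after median scaling and after quantile normalization, and 3 were lower in the deposited intensities and 3 after quantile normalization.

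Several drug-metabolising genes that fell shared their highest and lowest KKAy model arrays. Replicate 1 had the highest KKAy model signal and replicate 3 the lowest for Cyp2c37, Cyp2c50, Cyp2c54, Ces2a, Gstt2 and Gstt3, and also for Igfbp2 and Thrsp. Other drug-metabolising genes that fell did not share this order. Cyp2c68 was highest in replicate 4 and lowest in replicate 5, and Ahr was lowest in replicate 5. Fmo2 was highest in replicate 4 and lowest in replicate 2. The glutathione transferases Gstt2 and Gstt3, of the theta class, read 19.9 to 50.9 against 57.1 to 82.2 (-1.01 ± 0.27) and 7.35 to 24.8 against 26.2 to 70.6 (-1.66 ± 0.38), and the adjusted p of Gstt2 was 0.0543 without KKAy model replicate 3. Replicate 3 was also the array with the highest acute phase signals, given below, and the part of that in these genes was not tested.

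Transporters and steroid enzymes included several of the sharpest shifts. Slc22a7, the organic anion transporter OAT2, read 119, 74.9, 76.8, 63.1 and 64.8 in the KKAy model and 6.24, 14.9, 6.703, 20.8 and 26.2 in C57BL/6J (log2 difference 2.60, standard error 0.31, adjusted p = 1.01e-05). Abcg2, an efflux pump of drugs and urate, read 169, 195, 144, 172 and 139 against 58.4, 70.8, 46.9, 52.1 and 65.4 (log2 difference 1.48, standard error 0.14, adjusted p = 3.18e-07). Slco2a1, the prostaglandin uptake carrier, read 7.24 to 12.3 against 21.7 to 27.8 (-1.37 ± 0.19), and Abcc6, whose loss leads to ectopic calcification, 6.59 to 10.7 against 14.7 to 20.4 (-0.90 ± 0.16). Together, 2 of 25 uptake carriers rose and 3 fell, and 3 of 16 efflux pumps rose and 1 fell. Of 27 aldo-keto reductases and steroid enzymes, 4 rose and 4 fell, and in the same family Akr1c18 rose while Akr1c12 read 12.6, 4.06, 3.34, 5.003 and 3.24 against 63.3, 78.4, 54.8, 49.5 and 51.7 (log2 difference -3.59, standard error 0.51, adjusted p = 8.14e-05). Akr1d1, which reduces bile acid precursors and steroid hormones, read 18.7 to 84.2 against 81.8 to 129 (-1.06 ± 0.32), a call that was lost when 1 array was left out (adjusted p = 0.0924 without KKAy model replicate 3, the highest of 7 such omissions). Serpina6, the corticosteroid-binding globulin, rose by 1.08 ± 0.25, and Fkbp5, a glucocorticoid-induced chaperone, read 7.05 to 19.9 against 16.8 to 36.3 (-0.90 ± 0.26), with an adjusted p of 0.083 without KKAy model replicate 2, the highest of 4 such omissions.

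Acute phase proteins had the highest share of members that rose among the lists drawn, 12 of 32, with a median log2 difference of 0.62. Saa2, a serum amyloid A protein, read 343, 115, 707, 417 and 190.3 in the KKAy model and 28.1, 14.002, 9.202, 55.95 and 23.3 in C57BL/6J (log2 difference 3.77, standard error 0.74, adjusted p = 0.00174). Apcs, serum amyloid P, read 285, 254, 739, 372 and 239 against 86.3, 75.8, 48.3, 67.7 and 63.4 (log2 difference 2.35, standard error 0.33, adjusted p = 6.33e-05). Orm2, an acid glycoprotein, read 184, 97.3, 580.5, 199.7 and 84.03 against 37.2, 54.6, 29.2, 39.5 and 37.8 (2.19 ± 0.56), and Serpina3n, an antiprotease, 69.9, 57.2, 234, 86.4 and 47.2 against 25.3, 18.8, 20.5, 20.2 and 23.02 (1.94 ± 0.40). Replicate 3 of the KKAy model stood highest for all 4 genes, yet every other KKAy model array also lay above every C57BL/6J array. The summed signal of the list ran from 7888 to 17271 in the KKAy model, the latter in replicate 3, and from 5296 to 8186 in C57BL/6J, with overlap. After median scaling 15 members were higher with all arrays and 12 without replicate 3. Saa1 and Saa2 are near-identical copies, and their values are not independent.

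KKAy model replicate 3 also stood alone for Reg3b. This gene, a secreted lectin of pancreas and gut that the liver can also make in inflammation, read 238 there and at most 0.546 on the other 9 arrays. Lcn2, lipocalin 2, which sequesters bacterial siderophores, read 78.6, 30.4, 733, 209 and 48.7 in the KKAy model and 17.4, 7.34, 9.05, 12.4 and 5.51 in C57BL/6J (log2 difference 3.56, standard error 0.89, adjusted p = 0.0113), and without replicate 3 the adjusted p was 0.0373. Of the 15 measured pancreas and gut markers, 1 rose, the intestinal fatty acid carrier Fabp2 (120.1 to 153 against 36.8 to 58.1).

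Some cytokine response and complement genes rose or fell as well. Of 21 genes of the IL-6 and IL-1 response list, 3 rose and none fell (14.3% and 0%, against 6.22% and 2.41% over all genes). Il6st (gp130), the shared receptor subunit of IL-6 cytokines, read 46.9, 41.2, 59.2, 53.8 and 47.5 against 7.899, 10.1, 9.55, 8.38 and 6.38 (log2 difference 2.56, standard error 0.23, adjusted p = 1.96e-07). The 3 probe sets of Il6st above the array median all pointed up but differed in size, with log2 differences of 2.56, 0.25 and 0.53. Il1r1, the IL-1 receptor, rose by 1.62 ± 0.38 and Nfkbiz, a nuclear co-activator of NF-kappaB, by 1.30 ± 0.18. Of 28 complement genes, 6 rose and 2 fell. The terminal pathway split, since C6 and C9 rose while Hc, which encodes C5, read 95.7, 86.7, 95.2, 109 and 80.1 against 222, 222, 214, 252 and 255 (log2 difference -1.32, standard error 0.13, adjusted p = 1.33e-06) and C8b 36.9 to 52.4 against 64.9 to 91.1 (-0.79 ± 0.19). Cd59a, which blocks the membrane attack complex, rose (69.2 to 109 against 30.3 to 40.2, 1.26 ± 0.14), and C4bp and the lectin Mbl1 rose by 0.92 ± 0.16 and 0.77 ± 0.17.

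Interferon-inducible genes rose in 9 of 42 measured members and fell in none, with a median log2 difference of 0.70, but not on all KKAy model arrays alike. Mx2, an antiviral GTPase, read 2.14, 1.35, 8.63, 8.898 and 0.331 in the KKAy model and 0.183, 0.2298, 0.277, 0.356 and 0.187 in C57BL/6J. Gbp6, a guanylate-binding protein, read 7.42, 9.43, 41.04, 41.97 and 4.72 against 5.13, 5.17, 2.71, 3.799 and 2.88 (log2 difference 1.90, standard error 0.53, adjusted p = 0.0216), and Xaf1, a pro-apoptotic interferon target, 8.296, 6.51, 30.6, 25.3 and 4.42 against 5.45, 4.02, 3.98, 3.41 and 2.902 (1.55 ± 0.42). Replicates 3 and 4 were the 2 highest for all 3 genes, and replicate 5 overlapped C57BL/6J. With 1 array left out the adjusted p reached 0.0727 without KKAy model replicate 4, the highest of 4 such omissions for Gbp6 and 0.0617 without KKAy model replicate 4, the highest of 2 such omissions for Xaf1. Bst2 (tetherin), which holds budding viruses at the membrane, read 68.9, 69.8, 125, 148 and 59.7 against 40.4, 47.1, 34.01, 33.9 and 47.1 (log2 difference 1.14, standard error 0.23, adjusted p = 0.00197) and did not overlap. The antigen-processing genes Psmb9 (1.28 ± 0.25) and Tap1 (1.17 ± 0.27), which form peptides and carry them to class I molecules, rose, whereas none of 11 MHC class II genes was called. After median scaling, 10 members were higher with all arrays, 6 without replicate 3 and 6 without replicate 4.

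Markers of other liver cells were examined beside these lists. Of 40 macrophage and Kupffer cell genes, 6 rose and 1 fell, and the summed signal ran from 643 to 1236 in the KKAy model and from 398 to 666 in C57BL/6J, with overlap. The defining Kupffer cell markers Adgre1, Clec4f and Cd5l did not pass (adjusted p = 0.675, 0.193 and 0.143). Marco, a scavenger receptor of resident macrophages, read 1.25, 0.229, 0.123, 0.245 and 0.849 against 3.19, 5.94, 2.55, 3.41 and 2.09, below the array median on 4 of 5 KKAy model arrays, whereas Gpnmb, a marker of lipid-laden macrophages, had a C57BL/6J mean below the array median and read 0.748, 1.71, 1.85, 3.03 and 0.672 in the KKAy model. Mpeg1, a pore-forming protein of phagocytes, read 53.6, 36.7, 132, 112 and 37.1 against 29.9, 30.8, 23.9, 31.3 and 36.2 (1.09 ± 0.30, with an adjusted p of 0.0729 without KKAy model replicate 4, the highest of 3 such omissions), and Msr1, another scavenger receptor, rose by 0.99 ± 0.25. After median scaling 8 members were higher with all arrays, 4 without KKAy model replicate 3 or replicate 4 and 3 without C57BL/6J replicate 3.

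Neutrophil markers rose in 3 of 20 members, Lcn2, S100a8 and Prtn3. S100a8, a subunit of calprotectin, read 6.76, 8.45, 19.8, 14.2 and 11.4 against 1.895, 3.18, 1.55, 3.5805 and 3.099 (log2 difference 2.16, standard error 0.40, adjusted p = 0.00111), while its partner S100a9 overlapped (2.21, 2.35, 7.14, 4.03 and 2.16 against 2.54, 2.87, 1.54, 2.78 and 2.22, adjusted p = 0.505). The granule protein gene Ngp, named after its values were seen, overlapped too. The summed signal of the list, 58.8 to 788 against 24.2 to 33.1, did not overlap. Lcn2, which is also in the acute phase list, made up most of it in replicate 3 of the KKAy model (733), and without Lcn2, left out after its values were seen, the sum of the other 19 members was 23.9 to 55.01 against 15.1 to 20.6. None of 34 lymphocyte markers rose or fell, with the T cell marker Cd3e at 0.556 to 2.196 against 0.406 to 1.03, and the adipocyte hormones Adipoq and Lep lay below the array median on all 10 arrays.

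**Figure D5:**
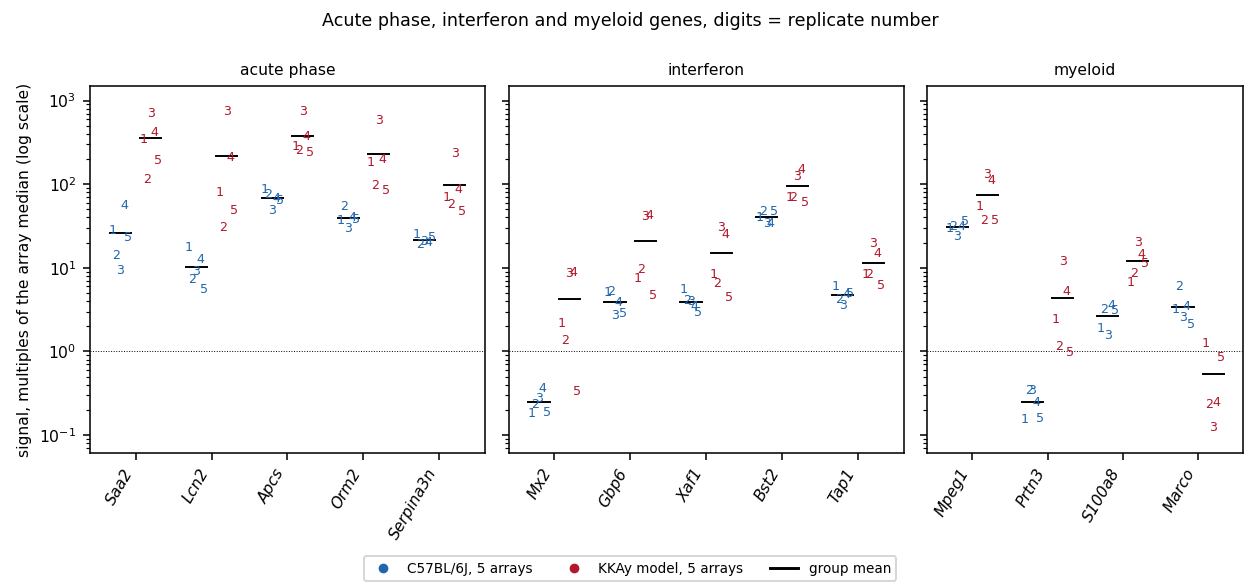
Signal in multiples of the array median, on a log axis, for acute phase, interferon and myeloid genes, with each digit the replicate number of an array (blue, C57BL/6J; red, KKAy model; black bar, group mean; dotted line, array median). Replicate 3 is the highest KKAy model array for the acute phase genes drawn, replicates 3 and 4 are the highest for the interferon genes, and Marco runs the other way.

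Stellate and endothelial lists rose at about the share over all genes, 4 of 54 and 3 of 44, with none that fell. Acta2, smooth muscle actin, which marks activated stellate cells and vessel walls, read 6.12, 5.02, 4.84, 6.101 and 6.56 against 1.304, 2.79, 1.72, 3.15 and 3.25 (log2 difference 1.31, standard error 0.33, adjusted p = 0.0119), and Rgs5, a pericyte gene, 39.7 to 59.9 against 15.996 to 26.8 (1.24 ± 0.15). Postn, a matrix protein, rose by 1.14 ± 0.24 with overlap, and Lox, the collagen cross-linking enzyme, had both group means below the array median. Col3a1 was higher after median scaling and lost the call under the other scalings, and Col1a1 did not pass (adjusted p = 0.903). Of endothelial genes, the hyaluronan receptor Stab2 rose by 0.84 ± 0.16, Vwf by 1.28 ± 0.25 and Flt4 by 0.86 ± 0.18, while Kdr did not pass (adjusted p = 0.69). Genes of the cytoskeleton and annexins rose in 9 of 42 members and fell in 1. Anxa2, a membrane-binding annexin, read 29.7, 26.1, 58.3, 44.8 and 22.5 against 7.76, 6.21, 6.04, 4.35 and 4.19 (log2 difference 2.61, standard error 0.23, adjusted p = 2.64e-07), and Lgals1, galectin 1, 29.96, 37.7, 34.6, 67.6 and 25.9 against 10.7, 18.8, 11.2, 10.02 and 11.8 (log2 difference 1.60, standard error 0.30, adjusted p = 0.00117). Msn, moesin, rose by 1.14 ± 0.20. Of 23 bile duct and progenitor genes, 1 rose, the keratin Krt8 (1.01 ± 0.17), which hepatocytes also make, and 1 fell, Afp, the fetal plasma protein (0.295 to 0.994 against 1.47 to 3.27, with an adjusted p of 0.059 without C57BL/6J replicate 2). Several of the macrophage and vessel markers given above were higher on the same arrays, and their part in these values was not tested.

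The list of apoptosis and p53 genes had 8 of 26 members that rose and 1 that fell, Bbc3, given above, with a median log2 difference of 0.62. Aen, an exonuclease of apoptosis, read 13.6, 16.01, 11.2, 20.5 and 11.3 against 5.57, 5.003, 5.89, 5.44 and 6.12 (log2 difference 1.34, standard error 0.15, adjusted p = 5.82e-06), with its 4 probe sets above the array median in the same direction. Ccng1, cyclin G1, read 51.5, 46.5, 29.5, 47.98 and 36.8 against 22.4, 25.4, 15.3, 16.2 and 19.2 (log2 difference 1.11, standard error 0.17, adjusted p = 0.00023). Zmat3, an RNA-binding p53 target, rose by 1.13 ± 0.24 and the death receptor Fas by 0.96 ± 0.19, and Gadd45a and Sesn2, given above, are members too. Cdkn1a (p21), the best known target, read 3.97, 3.19, 5.44, 10.97 and 6.24 against 2.92, 2.92, 1.65, 0.249 and 0.249, higher after median scaling (adjusted p = 0.032) but not in the deposited intensities. Its other probe set above the array median had a log2 difference of 0.07, and the mean of its probe sets did not pass (adjusted p = 0.197). Leaving out 1 array also removed the call (adjusted p = 0.0984 without C57BL/6J replicate 4). Mdm2, named after its values were seen, did not pass (adjusted p = 0.297). Cell cycle genes rose in 5 of 48 members and fell in 2. Cdk1, the mitotic kinase, read 2.75, 2.69, 3.03, 3.89 and 1.85 against 1.03, 1.54, 0.171, 1.05 and 0.204, and Ccne1, cyclin E1, 2.91 to 5.93 against 0.767 to 2.103 (1.24 ± 0.29). The inhibitor Cdkn2c read 5.64, 2.73, 4.83, 3.504 and 2.51 against 13.9, 9.01, 8.02, 7.31 and 8.55 (log2 difference -1.32, standard error 0.24, adjusted p = 0.000772).

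Lysosomal and autophagy genes rose in 8 of 40 members and fell in 3, and the cathepsins were split. Ctsh, a cysteine protease, read 35.1, 32.5, 34.3, 37.4 and 21.96 in the KKAy model and 163, 144, 121, 114 and 125 in C57BL/6J (log2 difference -2.06, standard error 0.16, adjusted p = 5.27e-08). Ctse, an aspartic protease, read 2.55, 28, 17.4, 42.6 and 21.8 against 1.14, 1.86, 1.63, 1.48 and 2.06 (log2 difference 3.35, standard error 0.53, adjusted p = 0.00023), with replicate 1 far below the other KKAy model arrays. Lamp1, the main lysosomal membrane protein, rose by 0.67 ± 0.15 and Becn1, which starts autophagosomes, by 1.06 ± 0.12, although 1 of 4 probe sets of Becn1 above the array median pointed down and the mean of all its probe sets did not pass (adjusted p = 0.29). Purine genes rose in 3 of 29 members, namely Hprt, the salvage enzyme (1.09 ± 0.12), Gda, guanine deaminase (1.36 ± 0.18), and Xdh, which forms urate (0.57 ± 0.14).

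Zonation markers changed in both directions. Of 31 pericentral genes, 2 rose and 4 fell (6.45% and 12.9%), and of 27 periportal genes, 3 rose and 4 fell (11.1% and 14.8%). The shares over all genes were 6.22% and 2.41%. Among those that fell, the pericentral Cyp2c37 and Ahr and the periportal Asl and Hal are also members of lists given above. Glul, glutamine synthetase of the last pericentral cells, read 200.4 to 322 against 221 to 283 and Cyp2e1 479 to 814 against 372 to 761, both overlapping. The pericentral genes Avpr1a, a vasopressin receptor (3.83 to 6.42 against 12.3 to 24.8, -1.68 ± 0.20), and Slc1a2, a glutamate carrier (-1.15 ± 0.20), fell, as did the periportal cadherin Cdh1 (-0.71 ± 0.14). For Slc1a2, 1 of 4 probe sets above the array median pointed up, and the mean of all its probe sets did not pass (adjusted p = 0.276). Mfsd2a, a periportal lysolipid carrier, rose by 1.53 ± 0.40.

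Clock genes rose in 1 of 21 members and fell in none. Nampt, the clock-linked enzyme of NAD salvage, read 27.7, 22.6, 32.1, 27.96 and 18.8 against 13.996, 16.1, 12.1, 13.5 and 12.6 (log2 difference 0.90, standard error 0.16, adjusted p = 0.000544). Dbp, a strongly cycling factor, read 135, 95.1, 31.5, 61.5 and 55.2 against 35.3, 38.7, 66.7, 31.4 and 111 (adjusted p = 0.496), Nr1d1 0.298, 1.37, 0.231, 3.34 and 0.868 against 3.49, 2.85, 3.61, 0.771 and 5.07 (adjusted p = 0.0829), and Per1 1.29 to 7.88 against 1.03 to 4.65. Among immediate early genes, Egr1, a factor that responds to growth signals within minutes, read 3.32, 3.59, 3.25, 2.05 and 1.79 in the KKAy model and 21.1, 31.2, 25.1, 53.6 and 14.7 in C57BL/6J (log2 difference -3.29, standard error 0.27, adjusted p = 1e-07), while Jund rose by 0.76 ± 0.16.

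Housekeeping lists differed in their share of calls, set against 6.22% higher and 2.41% lower over all genes. The shares that rose and fell were 1.45% and 4.35% for respiratory chain subunits and 11.1% and 0% for citrate cycle genes. No ribosomal protein or heat shock gene rose, and the shares that fell were 2.27% and 9.52%. Of 69 respiratory chain subunits, 1 rose and 3 fell. This count moved with the setting, since 8 were lower after quantile normalization, and 2 were higher after median scaling with all arrays but 11 without KKAy model replicate 5. Among those that fell were Ndufa12, of complex I, at 112 to 148 against 147 to 223 (-0.54 ± 0.13), and Cox7c, of complex IV, at 0.783 to 1.57 against 1.94 to 3.08. For Ndufa12, 1 of 3 probe sets above the array median pointed up, and the mean of its probe sets did not pass (log2 difference -0.30, adjusted p = 0.409). The mean of the probe sets of Cox7c did not pass either (adjusted p = 0.105). Of 44 ribosomal protein genes, none rose and 1 fell, with 4 lower in the deposited intensities and 10 after quantile normalization. Of 21 heat shock genes, none rose and 2 fell, including Hspa8, the constitutive chaperone (154 to 227 against 255 to 345, -0.57 ± 0.17), whose adjusted p was 0.0854 without KKAy model replicate 2, the highest of 4 such omissions. Citrate cycle genes rose in 3 of 27 members, among them Sucla2, a subunit of succinyl-CoA ligase (0.55 ± 0.13), and Pdhx, of the pyruvate dehydrogenase complex (0.73 ± 0.13).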

How the data were processed

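Liver RNA of 15 mice was measured on 1-colour Affymetrix mouse arrays. The deposited values are intensities, 1 per probe set on a linear scale. The methods name ArrayTrack with median scaling to 1000, but the deposited intensities were not at that median, and how probes were summarised was not given in the sources used here. Each array was therefore scaled to a median of 1000 here, log2 values were taken, and signals are printed divided by that median. Of 45101 probe sets, 34958 had 1 gene in the platform annotation, 932 several and 9211 none; 34754 were matched by Entrez number, 13 control probe sets were left out, and the probe set with the highest mean signal stood for each of 18193 genes. limma 3.58.1 in R 4.3.3 (lmFit, eBayes with an intensity trend) was fitted to all 15 arrays with a mean per group, and p-values are two-sided with Benjamini-Hochberg adjustment over all genes. The number of arrays limits the precision, and the median standard error of a log2 difference was 0.283. Each array is labelled as a separate liver sample. The test was also run on simulated arrays with planted changes and no array-wide shift, which does not check the choice of scaling.

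Groups came from the sample titles. The comparison, the gene lists and the alternatives were chosen with earlier results of these data known, so lists are described by counts and medians with no test over the list. Genes were named by rule: the 25 with the largest difference in each direction that did not overlap and were at or above the array median in the higher group, up to 8 called genes per list and direction, the 5 brightest members of each list, all members of 10 lists (hepatocyte, strain, sex-biased, clock, insulin, growth hormone, glycolysis, gluconeogenesis and nuclear receptor lists), and the 3 genes measured by PCR. Of 227 genes named, 12 lie outside this rule, being fixed cell type markers or genes said to be chosen after their values were seen. Alternatives covered the scaling, probe sets, dim genes, small signals, tests, arrays in the fit, array weights, a replicate block and leaving out each array. Promoter sequences came from RefSeq (GRCm38.p6). Analysis used Python 3.11.15 and matplotlib 3.10.9.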

Additional observations from a re-analysis of the deposited data

Results flagged for a closer look

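The following values stood apart from the other 4 arrays of their group, measured as the gap to the nearest array divided by the whole range of the group, both on the log2 scale, with a critical value of 0.71 for 5 arrays. The groups examined came from 160 genes and 12 lists and not from all 227 genes named. Other named genes may therefore also hold an array that stands apart. Of 344 groups examined 17 exceeded it, or 4.94%, and chance gives about 1 in 20. In the KKAy model, replicate 5 was low for C9 (0.717), Sucla2 (0.712) and Ctsh (0.734), replicate 4 was high for Gnai1 (0.783) and for the summed signal of the lymphocyte markers (0.731), and replicate 3 was low for Abcc6 (0.836). In C57BL/6J, replicate 1 was high for Foxo1 (0.891), Hal (0.873) and the summed signal of the stellate cell and matrix genes (0.888) and low for Ccne1 (0.836). Replicate 2 of C57BL/6J was high for Lgals1 (0.744) and Gda (0.730), and replicate 5 was high for Gadd45a (0.727). Replicate 3 of C57BL/6J was low for Cyp2c37 (0.797), Aldh4a1 (0.758), Mbl1 (0.761) and Zmat3 (0.803).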

How the results depend on the processing

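The counts of 1924 genes higher and 442 lower moved by more than 1.5 times under 5 settings. They were 1137 and 1027 in the intensities as deposited, and 1102 genes were lower after quantile normalization. With the mean of all probe sets of a gene, 1190 genes were higher. The Dunnett comparison of the methods gave 1140 and 239 after Benjamini-Hochberg adjustment and 746 lower without adjustment. Leaving out each array in turn gave 1287 to 2382 higher and 352 to 407 lower. With a replicate block the counts were 1708 and 395. Over all genes, same-numbered arrays did not deviate together (correlations of -0.031 to 0.009 between their deviations from the group means). A pairing that acts on some genes only could not be seen in this measure. Calls of the 180 named genes that passed were all kept without dim genes, with a constant added, in the 10 arrays alone and with the unadjusted Dunnett comparison. They were lost for 35 with the mean of probe sets, 17 without the intensity trend, 54 under the adjusted Dunnett comparison, 5 under the replicate block and 5 to 12 when 1 array was left out, the most without C57BL/6J replicate 3. After median scaling, leaving out 1 array moved the number of higher members by 6 or more in the following lists. Without KKAy model replicate 5 it rose for respiratory chain subunits (2 to 11), amino acid catabolism (10 to 17), retinoid metabolism (1 to 7) and interferon response (10 to 16). It fell for amino acid catabolism (10 to 3 without KKAy model replicate 4 and to 4 without C57BL/6J replicate 3 or 4) and chaperones of the endoplasmic reticulum (8 to 2 without C57BL/6J replicate 3). With the mean of probe sets the log2 differences of Pck1 (-0.54) and Hfe (-1.29) changed sign. The cause of these changes was not tested. No background measure was used, so the sizes of differences of genes below the array median are not printed.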
